A study of Mus musculus with 10 samples.

Results

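Nectins, the poliovirus receptor and the lymphocyte receptors that bind them were measured as 7 genes, chosen by name from the 38215 genes listed: the ligand genes Pvr, Pvrl1, Pvrl2 and Pvrl3 (current symbols of the nectin genes are Nectin1, Nectin2 and Nectin3) and the receptor genes Cd226, Tigit and Cd96. Of these, 5 had enough counts to be tested, and Pvrl3 and Cd96 did not. RNA came from GFP+ splenocytes of leukaemic mice that were secondary recipients of acute myeloid leukaemia (AML), 5 immunocompetent C57BL/6J mice (libraries 1, 3, 4, 5 and 6) and 5 Rag2-/-γc-/- mice (libraries 7 to 11), which lack T, B and NK cells. All 10 leukaemias carried AML1-ETO and Nras G12D, expressed from the retrovirus MSCV-IRES-GFP in lineage-depleted bone marrow cells, and all had first been passed through Rag2-/-γc-/- mice. The comparison addresses the effect of an immune system of the host on the transcriptome of the leukaemia. The number of primary leukaemias behind the recipients, and the age of the mice, are not stated by the labels. P-values therefore cover only how these recipients varied, and part of that variation may be technical.

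PVR and the nectins are cell surface adhesion proteins of the immunoglobulin superfamily. On a target cell, PVR and nectin-2 are bound by CD226, which activates NK and T cells, and by TIGIT, which inhibits them through motifs in its tail, so the pair of receptors competes for the same ligands. CD96 also binds PVR and, in mice, nectin-1. Nectins further bind each other between cells and are tied to actin by afadin. CD226 occurs outside lymphocytes too, on platelets and on some myeloid cells.

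Promoters were printed for Pvrl2, because it was the ligand gene that changed, and for Tigit and Cd96, because these lymphocyte receptor genes lie on 1 chromosome and had unlike levels in the leukaemia. RefSeq windows on GRCm38.p6, each from 250 bases before to 50 after the gene's start, were found for 4 of the 7 genes. Capitals mark the GC box GGGCGG, the cyclic AMP response element TGACGTCA and the ETS motif CCGGAAGT in Pvrl2 (minus strand, chr7:19749524-19749823), and the RUNX motif TGTGGT or its complement ACCACA in Tigit (minus strand, chr16:43664135-43664434) and Cd96 (minus strand, chr16:46120199-46120498).
Pvrl2: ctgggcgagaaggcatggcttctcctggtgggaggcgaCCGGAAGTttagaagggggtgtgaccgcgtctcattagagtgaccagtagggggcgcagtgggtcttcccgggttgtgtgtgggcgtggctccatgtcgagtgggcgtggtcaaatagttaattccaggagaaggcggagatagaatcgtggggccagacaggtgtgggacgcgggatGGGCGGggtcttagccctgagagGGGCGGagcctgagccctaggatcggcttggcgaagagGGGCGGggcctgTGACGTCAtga
Tigit: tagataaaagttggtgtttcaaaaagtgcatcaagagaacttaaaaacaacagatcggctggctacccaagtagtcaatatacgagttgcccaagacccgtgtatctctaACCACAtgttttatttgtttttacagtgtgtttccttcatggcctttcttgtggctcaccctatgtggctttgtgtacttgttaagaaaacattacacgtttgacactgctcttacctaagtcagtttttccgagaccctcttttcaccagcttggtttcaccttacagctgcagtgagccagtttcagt
Cd96: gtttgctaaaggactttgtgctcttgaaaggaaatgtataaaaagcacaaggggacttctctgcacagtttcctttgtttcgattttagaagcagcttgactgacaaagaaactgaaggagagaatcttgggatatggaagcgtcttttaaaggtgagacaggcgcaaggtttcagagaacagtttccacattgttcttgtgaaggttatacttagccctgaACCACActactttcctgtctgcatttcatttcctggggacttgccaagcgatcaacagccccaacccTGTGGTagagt

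Both strands were searched, and no marked motifs overlapped. The Pvrl2 window held 3 GC boxes, which 35.7% of all 32851 windows held at least once, the cyclic AMP response element (1.79% of windows), 40 bases into the transcribed part, and the ETS motif (3.89% of windows). The Tigit window held the RUNX motif once and the Cd96 window 2 times, against 16.8% of windows with at least 1. The RUNX motif is the sequence recognised by the DNA-binding part of the AML1-ETO fusion. The AP-1 motif TGANTCA (7.81%) and the interferon-stimulated response element (3.44%) were not in the 3 printed windows, and the TATA motif TATAAA (13.6%) was in that of Cd96 only. These matches describe letters, and binding was not measured.

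Library totals of expected counts ranged between 32703932 and 44097690 in C57BL/6J recipients and between 28157745 and 62461126 in Rag2-/-γc-/- recipients. On the first principal component of log2 CPM (CPM, counts scaled to library size; 46.4% of the variance) C57BL/6J libraries lay at 20.2 to 57.5. Rag2-/-γc-/- libraries 7, 8 and 9 lay at -61.6 to -49.6, with libraries 10 and 11 in the middle at 4.9 and -8.7. C57BL/6J library 1 stood apart on the third component (14%), at 57.4 against -20.6 to -11.5 in the other 4. Results for the 7 genes, their neighbours and called genes named from pathway lists are therefore also given without these libraries where that changes them. Tests of cell type markers and of other listed genes are given with all libraries only. Markers of myeloid leukaemia cells had counts in both groups for 12 of 12 genes, and their summed level was 4439 to 4956 CPM in C57BL/6J recipients and 4472 to 4880 CPM in Rag2-/-γc-/- recipients, with Ptprc and Spi1 (listed as Sfpi1) over 300 CPM in the mean of both, while Mpo averaged 0.157 CPM in C57BL/6J and 0.459 CPM in Rag2-/-γc-/- recipients. Behind the steady sum, 4 of the 12 differed by the edgeR test: Kit rose, with 4.88 CPM in C57BL/6J and 0.252 CPM in Rag2-/-γc-/- recipients (adjusted p = 7.19e-05), and Cebpa, Cd34 and Csf1r fell. These averaged 3.16, 129 and 32.1 CPM in C57BL/6J recipients, against 22.04, 336 and 70.3 CPM in Rag2-/-γc-/- recipients. Kit, at 0.163 to 0.434 CPM in Rag2-/-γc-/- libraries, passed the count filter only through C57BL/6J recipients. The part of these marker changes in the values of the 7 genes was not tested. The groups were compared by the quasi-likelihood test of edgeR over 13966 genes, with Benjamini-Hochberg adjustment and a threshold of 0.05. By that test 7.79% of genes differed, 3.32% higher and 4.47% lower in C57BL/6J recipients, and the groups' values did not overlap in 8.5% of genes (4.13% higher and 4.37% lower in C57BL/6J recipients).

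Among the ligand genes, Pvrl2 fell in cells from C57BL/6J recipients, while neither Pvr nor Pvrl1 passed the threshold. Among the receptor genes, Cd226 rose in the same cells, and Tigit did not pass. Of the 5 genes tested, 1 rose and 1 fell, and in those same 2 the groups did not overlap. Read against the background of 7.79%, these are 2 of only 5 genes.

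Pvrl2 (ENSMUSG00000062300, protein-coding, chromosome 7, 19716644 to 19749573, minus strand, GRCm38) encodes nectin-2, a ligand of CD226 and TIGIT. Its level was 1.22, 1.33, 2.08, 1.35 and 0.528 CPM in C57BL/6J libraries 1, 3, 4, 5 and 6, against 8.36, 5.37, 3.26, 3.10 and 3.41 CPM in Rag2-/-γc-/- libraries 7 to 11. All C57BL/6J values were below all Rag2-/-γc-/- values, and library 7 was the highest. Pvrl2 fell by 1.86 ± 0.38 on the log2 scale (SE, n = 5 each; edgeR adjusted p = 0.0133), which is 3.62-fold higher in Rag2-/-γc-/- recipients. The counts behind it were low, 259 over the C57BL/6J group and 1040 over the Rag2-/-γc-/- group. When any 1 library was left out, the log2 fold change stayed between -2.09 and -1.54 (edgeR adjusted p 0.00937 to 0.0346). Without Rag2-/-γc-/- libraries 7, 8 and 9 it was -1.32 ± 0.41 and no longer past the threshold (edgeR adjusted p = 0.185), and a test against a 1.5-fold change did not call it (edgeR adjusted p = 0.061).

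Neighbouring genes of Pvrl2 on the same strand did not pass the test. Tomm40, which encodes the import pore of the mitochondrial outer membrane, lies 1206 bases from Pvrl2 and averaged 85.8 ± 13.4 CPM in C57BL/6J recipients against 80.5 ± 6.45 CPM in Rag2-/-γc-/- recipients (SD, n = 5 each; edgeR adjusted p = 0.602). Bcl3, a nuclear member of the IκB family 58889 bases away on the other side, had 43.6 ± 7.18 CPM in C57BL/6J recipients and 56.6 ± 30.8 CPM in Rag2-/-γc-/- recipients (edgeR adjusted p = 0.432). The antisense gene Gm20512 overlaps Pvrl2 over 5088 bases and reached at most 0.102 CPM in a library.

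Pvr (ENSMUSG00000040511, protein-coding, chromosome 7, 19903578 to 19921160, minus strand, GRCm38) encodes PVR (CD155), a ligand shared by CD226, TIGIT and CD96. It measured 8.86, 14.7, 16.98, 15.1 and 14.9 CPM in C57BL/6J libraries 1, 3, 4, 5 and 6, against 31.4, 24.4, 18.2, 13.6 and 18.0 CPM in Rag2-/-γc-/- libraries 7 to 11. Libraries 7 and 8 were the highest of all, and library 10 lay within the range of the C57BL/6J group, so that the groups overlapped. The log2 fold change was -0.58 ± 0.23 (SE, n = 5 each; 95% interval -1.08 to -0.08; edgeR adjusted p = 0.143). It passed the threshold without library 10 (-0.70; edgeR adjusted p = 0.0451), without libraries 10 and 11 (-0.80; edgeR adjusted p = 0.0168) and in limma-voom with sample quality weights (-0.49; adjusted p = 0.0241). In these settings many more of all genes were called. Higher and lower, they were 1076 and 1323 of 14194, 2786 and 2518 of 14461, and 3306 and 3217 of 13966. Without libraries 7, 8 and 9 the log2 fold change of Pvr was -0.16 ± 0.23 (edgeR adjusted p = 0.879). Pvr is overlapped on the opposite strand by the pseudogene Gm16184, which reached at most 0.424 CPM, and by the antisense gene Gm16251, listed at 0 in every library.

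Pvrl1 (ENSMUSG00000032012, protein-coding, chromosome 9, 43744576 to 43807454, plus strand, GRCm38) encodes nectin-1 and had the highest level per kb of the 4 ligand genes. The values were 64.6, 106, 91.0, 105 and 91.2 CPM in C57BL/6J libraries 1, 3, 4, 5 and 6, against 72.4, 108, 106, 61.6 and 79.6 CPM in Rag2-/-γc-/- libraries 7 to 11. The groups spanned nearly the same range. The log2 fold change was 0.10 ± 0.18 (SE; 95% interval -0.29 to 0.49; edgeR adjusted p = 0.737), and its sign turned without libraries 10 and 11 (-0.05) and in limma-voom with sample quality weights (-0.03). Its nearest tested neighbour on the lower side, Oaf, 504760 bases away, fell by 1.30 ± 0.18 in log2 units (error as SE, edgeR adjusted p = 0.00146) and had 3.97 ± 0.923 CPM in C57BL/6J recipients and 9.80 ± 1.34 CPM in Rag2-/-γc-/- recipients (SD, n = 5 each).

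Pvrl3 (ENSMUSG00000022656, chromosome 16, 46387706 to 46498525, minus strand, GRCm38), which encodes nectin-3, was close to undetected. It had 4 counts in C57BL/6J library 4 and 1 in library 5, against 1 in Rag2-/-γc-/- library 7 and 3 in library 9, and none in the other 6. No difference was detectable at this depth (exact two-sided permutation test of CPM, p = 1).

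Summed per length of exon, the ligand genes had unequal shares, and Pvrl2 took the smaller share of the 3 detected ones in both groups. Of the summed CPM per kb of the 4 genes, Pvrl1 made up 82.7 to 87.1% in C57BL/6J libraries and 63 to 82.7% in Rag2-/-γc-/- libraries. Pvr made up 10.9 to 14.2% in C57BL/6J libraries and 13.1 to 25.2% in Rag2-/-γc-/- libraries. Pvrl2 made up 0.807 to 3.06% in C57BL/6J libraries against 4.12 to 11.8% in Rag2-/-γc-/- libraries. Per kb, Pvr was 4.14 to 16.1 times the level of Pvrl2 in C57BL/6J libraries and 2.14 to 3.19 times in Rag2-/-γc-/- libraries.

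Over the 10 libraries the order of levels per kb was Pvrl1 (15.7 ± 3.18 CPM per kb), Tigit (10.3 ± 3), Pvr (2.88 ± 1.02), Cd226 (1.08 ± 0.454), Pvrl2 (0.859 ± 0.676), Cd96 (0.0804 ± 0.149) and Pvrl3 (0.00195 ± 0.00338; SD, n = 10 each). The ranges of Pvrl1 (10.9 to 19.1 CPM per kb) and Tigit (3.99 to 13.4) over the libraries overlapped. Compared within each library, Pvrl1 was higher in 9 of 10. Tigit was higher than Pvr, and Pvr higher than Cd226 and Pvrl2, in 10 of 10 libraries. Cd226 was higher than Pvrl2 in 5 of 5 C57BL/6J libraries and in 0 of 5 Rag2-/-γc-/- libraries. These levels rest on exon lengths of GENCODE M21, between 919 bases for Tigit and 12747 for Pvrl3.

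Cd226 (ENSMUSG00000034028, protein-coding, chromosome 18, 89197431 to 89270201, plus strand, GRCm38), the activating receptor gene, rose in cells from C57BL/6J recipients. It measured 5.59, 7.28, 6.78, 7.53 and 8.73 CPM in C57BL/6J libraries 1, 3, 4, 5 and 6, against 2.31, 3.88, 3.87, 4.25 and 2.58 CPM in Rag2-/-γc-/- libraries 7 to 11. The lowest C57BL/6J value was above the highest Rag2-/-γc-/- value. The log2 fold change was 1.09 ± 0.20 (SE, n = 5 each; edgeR adjusted p = 0.00828), or 2.13-fold, and stayed between 0.97 and 1.19 when any 1 library was left out (edgeR adjusted p 0.00586 to 0.0252). Without Rag2-/-γc-/- libraries 7, 8 and 9 the size was the same, 1.08 ± 0.25, but it missed the threshold with 2 libraries in that group (edgeR adjusted p = 0.0773). A test against a 1.5-fold change did not call it either (edgeR adjusted p = 0.114).

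Tigit (ENSMUSG00000071552, protein-coding, chromosome 16, 43648861 to 43664184, minus strand, GRCm38), the inhibitory receptor gene, was present in all 10 libraries. It measured 11.7, 11.7, 9.39, 9.99 and 12.3 CPM in C57BL/6J libraries 1, 3, 4, 5 and 6, against 10.4, 9.92, 9.92, 5.55 and 3.67 CPM in Rag2-/-γc-/- libraries 7 to 11. Rag2-/-γc-/- libraries 7, 8 and 9 lay within the range of the C57BL/6J group, and libraries 10 and 11 were lower than all others. The log2 fold change was 0.48 ± 0.26 (SE; 95% interval -0.09 to 1.04; edgeR adjusted p = 0.26). Against libraries 10 and 11 alone it was 1.26 ± 0.21 (edgeR adjusted p = 0.0216), and against libraries 7, 8 and 9 alone 0.13 ± 0.12 (edgeR adjusted p = 0.429). Zbtb20, a zinc finger repressor gene 6259 bases from Tigit on the opposite strand, averaged 66.5 ± 26.1 CPM in C57BL/6J recipients and 117 ± 84.1 CPM in Rag2-/-γc-/- recipients (SD; edgeR adjusted p = 0.351). Its log2 fold change passed the threshold without libraries 10 and 11 (-1.38; edgeR adjusted p = 0.00593), and without libraries 7, 8 and 9 it was 1.13.

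Cd96 (ENSMUSG00000022657, protein-coding, chromosome 16, 46035657 to 46120251, minus strand, GRCm38) had 33, 18, 7, 0 and 5 counts in C57BL/6J libraries 1, 3, 4, 5 and 6, against 0 counts in each of Rag2-/-γc-/- libraries 7 to 11. Counts thus occurred in 4 of 5 C57BL/6J libraries, with the most in library 1, the library apart on the third component. Against a floor of 3 counts over the Rag2-/-γc-/- group (0.0151 CPM), the pooled C57BL/6J level of Cd96 (63 counts, 0.318 CPM) was 21.1-fold higher. That floor covers counting error in the Rag2-/-γc-/- group only. Neither counting error in the C57BL/6J group nor the spread between its libraries is covered, and 33 of its 63 counts were in library 1. The exact two-sided permutation test over 252 assignments of the libraries gave p = 0.0476 (smallest possible 0.00794), and 0.0952 after adjustment over the 2 genes tested this way. Fitted without a count filter, Cd96 had an edgeR adjusted p of 0.0424. With 0 counts in each Rag2-/-γc-/- library, a rise was the only call open to it. Without library 1 the mean difference was 0.187 CPM, against 0.351 CPM with all libraries.

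Some markers of T and NK cells differed between the groups, although the cells were sorted for GFP. Cd3e, a chain of the T cell receptor complex, had 3.42, 1.41, 0.406, 0.152 and 0.730 CPM in C57BL/6J libraries 1, 3, 4, 5 and 6, against 0.0170, 0.0237, 0, 0.0327 and 0 CPM in Rag2-/-γc-/- libraries 7 to 11. Counts were found for 20 of 20 T cell markers in C57BL/6J recipients and for 16 of 20 in Rag2-/-γc-/- recipients, where Cd8b1, Cd2, Cd28 and Themis were at 0. Their summed level was 70.3 to 142 CPM in C57BL/6J libraries against 21.9 to 47.7 CPM in Rag2-/-γc-/- libraries, with Cd8a, which dendritic cells also express, at 48.6 to 107 CPM in C57BL/6J libraries and 14.9 to 41.2 CPM in Rag2-/-γc-/- libraries. In C57BL/6J library 1, which had the highest sum, Cd8a was 65.6 of 142 CPM. Of the 9 tested T cell markers, Cd8a, Zap70 and Icos rose by edgeR and none fell (33.3% called, against 7.79% of all genes). Zap70 and Icos averaged 0.0118 and 0.0172 CPM in Rag2-/-γc-/- recipients and passed the count filter only through C57BL/6J recipients. A rise was thus the only call open to them. Cd5 averaged 1.43 CPM in C57BL/6J recipients and 2.83 CPM in Rag2-/-γc-/- recipients (edgeR adjusted p = 0.138). NK cell markers summed to 19.8 to 25.7 CPM in C57BL/6J libraries, with counts for 14 of 14, against 8.72 to 22.1 CPM with counts for 9 of 14 in Rag2-/-γc-/- libraries. These sums overlapped. Of the 4 tested NK markers Nkg7 alone rose (25% called), at 0.261 to 2.63 CPM in C57BL/6J libraries and 0 in all Rag2-/-γc-/- libraries. Nkg7 too passed the count filter only through C57BL/6J recipients. Klrb1c averaged 0.809 CPM in C57BL/6J recipients and 2.07 CPM in Rag2-/-γc-/- recipients (edgeR adjusted p = 0.115). Klrd1 made up most of both sums, and the defining NK marker Ncr1 was at 0 in all Rag2-/-γc-/- libraries and at most 0.214 CPM in a C57BL/6J library.

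For the 3 receptor genes these markers gave unlike pictures. Cd96 counts were highest in the 2 libraries with most Cd3e, 1 and 3, and 0 in library 5, which had the least Cd3e of its group. The part of lymphocyte RNA in the Cd96 counts was not tested. Cd226 was lowest of its group in library 1, where Cd3e was highest, and its log2 fold change without that library was 1.17 (edgeR adjusted p = 0.0075). Tigit and Cd226 averaged 7.90 ± 3.08 and 3.38 ± 0.872 CPM in Rag2-/-γc-/- libraries (SD, n = 5 each), in which Cd3e did not exceed 0.0327 CPM. The part of lymphocyte RNA in Tigit and Cd226 was not tested either. Platelet and megakaryocyte markers, of a lineage that carries CD226, summed to 12.3 to 20.2 CPM in C57BL/6J libraries and 4.31 to 21.3 CPM in Rag2-/-γc-/- libraries, with counts for 9 of 10 in each. Of the 4 of these that were tested, Itga2b alone rose (25% called, against 7.79% of all genes). It was at 4.25 to 9.16 CPM in C57BL/6J libraries against 1.14 to 2.75 CPM in Rag2-/-γc-/- libraries (log2 fold change 1.82 ± 0.26, SE; edgeR adjusted p = 0.00187). The other tested markers Pf4, Gp1ba and Vwf averaged 1.25, 0.55 and 6.4 CPM in C57BL/6J recipients, against 2.20, 1.27 and 6.67 CPM in Rag2-/-γc-/- recipients, and none passed the threshold. The part of platelet RNA in the rise of Cd226 was not tested. In bulk RNA, fewer cells of a type and less RNA per cell cannot be told apart.

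Endothelial and stromal markers, from cells in which nectins are common, summed to 1.37 to 2.18 CPM in C57BL/6J libraries and 0.882 to 1.88 CPM in Rag2-/-γc-/- libraries. The defining markers Cdh5, Kdr and Tek were below 1 CPM in the mean of both groups. Of the 2 tested, Col1a1, a fibroblast collagen gene, rose (50% called, against 7.79% of all genes). It had 0.833 CPM in C57BL/6J recipients and 0.272 CPM in Rag2-/-γc-/- recipients (log2 fold change 1.58 ± 0.30, SE; edgeR adjusted p = 0.00924). Col1a1 passed the count filter only through C57BL/6J recipients. The collagen genes Col1a2 and Col3a1, under the filter, averaged 0.0604 and 0.0696 CPM in C57BL/6J recipients, against 0.124 and 0.190 CPM in Rag2-/-γc-/- recipients. The part of endothelial and stromal RNA in the ligand values was not tested.

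Of 26 listed nectin-like and afadin junction genes, 20 were tested, of which 1 rose and 5 fell (30% called, against 7.79% of all genes). Without C57BL/6J library 6 the count was 1 higher and 2 lower, and without Rag2-/-γc-/- libraries 7, 8 and 9 it was 1 higher and 1 lower. With 1 of 5 further libraries omitted (numbers 3, 4, 5, 8 and 9), 3 were lower, and leaving out libraries 10 and 11 gave 3 higher and 8 lower. Calls over all genes moved as well. Without libraries 10 and 11, 2786 were higher and 2518 lower of 14461 tested. Without libraries 7, 8 and 9, 148 were higher and 127 lower of 14601. The median log2 fold change of the junction genes was -0.18, against 0.004 over all tested genes. Pvrl4, the remaining nectin gene, was at 0.275, 0.370, 0.355, 0.305 and 0.226 CPM in C57BL/6J libraries 1, 3, 4, 5 and 6, against 1.34, 1.94, 1.27, 0.588 and 0.733 CPM in Rag2-/-γc-/- libraries 7 to 11. The groups did not overlap, at a low level, and Pvrl4 fell by 1.93 ± 0.35 in log2 units (error as SE, edgeR adjusted p = 0.00712), but it was at -1.10 without libraries 7, 8 and 9 (edgeR adjusted p = 0.217). On its C57BL/6J values alone, with library 6 at 0.226 CPM, Pvrl4 would not have passed the count filter.

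Cadm4, a nectin-like adhesion molecule gene, fell by 2.11 ± 0.25 in log2 units (error as SE, edgeR adjusted p = 0.00055) and measured 1.26 to 2.36 CPM in C57BL/6J libraries against 4.57 to 10.8 CPM in Rag2-/-γc-/- libraries. Ctnnd1, which encodes the cadherin-binding p120 catenin, fell to 245 ± 20.7 CPM in C57BL/6J recipients, against 377 ± 76.7 CPM in Rag2-/-γc-/- recipients (edgeR adjusted p = 0.0176; errors are SD of 5). It missed the threshold when C57BL/6J library 6 was left out, with a log2 fold change of -0.57 against -0.62 (edgeR adjusted p = 0.0511). Without libraries 7, 8 and 9 the log2 fold change was smaller, at -0.32 (edgeR adjusted p = 0.233). The gene that rose was Cdh1, encoding E-cadherin, at 39.3 to 55.8 CPM in C57BL/6J libraries against 15.8 to 24.8 CPM in Rag2-/-γc-/- libraries (log2 fold change 1.31 ± 0.15, SE; edgeR adjusted p = 0.000494). Afadin itself (Mllt4) was at 140 ± 23.1 CPM in C57BL/6J recipients and 155 ± 8.36 CPM in Rag2-/-γc-/- recipients (edgeR adjusted p = 0.442), and Cadm1, whose product binds the lymphocyte receptor CRTAM, at 280 ± 51.2 CPM in C57BL/6J recipients and 231 ± 30.7 CPM in Rag2-/-γc-/- recipients (edgeR adjusted p = 0.217).

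Of 22 listed genes of receptor signalling, 21 were matched and 20 tested, of which 2 rose and 1 fell (15% called, against 7.79% of all genes), with a median log2 fold change of -0.17. None was called in either direction by edgeR without libraries 7, 8 and 9. The number called lower was 0 to 7 with each library left out. It was highest without library 10, where 1323 of all 14194 tested genes were called lower. Without libraries 10 and 11 it was 10, where 2518 of all 14461 tested genes were called lower. Prkcq, a protein kinase C gene active below the T cell receptor, measured 3.57, 1.65, 1.497, 2.39 and 1.03 CPM in C57BL/6J libraries 1, 3, 4, 5 and 6, against 0.271, 0.260, 0.434, 0.196 and 0.405 CPM in Rag2-/-γc-/- libraries 7 to 11. It rose by 2.69 ± 0.38 in log2 units (error as SE, edgeR adjusted p = 0.00158). On its Rag2-/-γc-/- values alone, with library 10 at 0.196 CPM, Prkcq would not have passed the count filter. Its value was highest in library 1, where Cd3e was also highest, and next in library 5, where Cd3e was lowest of the group, and the part of lymphocyte RNA in it was not tested. Plcg1, a phospholipase C gene, rose 1.61-fold, with 21.5 ± 3.94 CPM in C57BL/6J recipients and 13.3 ± 1.43 CPM in Rag2-/-γc-/- recipients (edgeR adjusted p = 0.012). Without libraries 7, 8 and 9, which leaves 2 in that group, the log2 fold changes were no smaller, at 2.72 for Prkcq and 0.75 for Plcg1, but neither passed the threshold (edgeR adjusted p = 0.0635 and 0.0964). Epb4.1, a membrane skeleton gene, fell by 0.42 ± 0.10 in log2 units (error as SE, edgeR adjusted p = 0.0241). It missed the threshold when C57BL/6J library 3, 5 or 6 was left out, or Rag2-/-γc-/- library 7, 8 or 9, with a log2 fold change still at -0.41 to -0.38 (edgeR adjusted p up to 0.0707). Without libraries 7, 8 and 9 together it was -0.23 (edgeR adjusted p = 0.422). The phosphatase genes Inpp5d and Ptpn6 encode enzymes that act below inhibitory receptors such as TIGIT and dampen activation. These genes averaged 472 and 403 CPM in C57BL/6J recipients, against 601 and 461 CPM in Rag2-/-γc-/- recipients. Neither passed the threshold (edgeR adjusted p = 0.111 and 0.268).

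The 5 tested members differed in the genes that followed them across libraries (Pearson r of log2 CPM over 10 libraries, among 9052 or 9053 genes averaging at least 5 CPM, given as a description). Pvrl2 was followed most closely by Parp10 (r = 0.970), B3gnt7 (0.969) and Lgals8 (0.967), and Cd226 by Mtmr1 (0.973), Neurl1b (0.965) and Plcb4 (0.958). Since both members differ between groups, part of these values is the group difference, and with group means removed r was 0.884 to 0.906 for the first 3 and 0.826 to 0.867 for the other 3. Pvr was followed by the chromatin remodeller genes Chd2 (0.968) and Chd7 (0.958) and by the taurine transporter gene Slc6a6 (0.962). Pvrl1 was followed by Usp40 (0.903), Itga4 (0.896) and Hiat1 (0.876), and Tigit by Acss2 (0.956), Fbxo9 (0.918) and Cetn4 (0.917). The values for Tigit rested on Rag2-/-γc-/- libraries 10 and 11, without which they were 0.470, 0.742 and 0.567. Between members, r was highest for Pvr with Pvrl2 (0.74, and 0.55 with group means removed) and lowest for Pvrl2 with Cd226 (-0.88, and -0.55 with group means removed).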

How the data were processed

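RNA was from GFP+ splenocytes, with poly(A) selection in NEBNext Ultra libraries, per the labels' protocols. The authors deposited expected counts per Ensembl gene with positions. Per the submitters' processing notes, the tools were cutadapt 1.11, STAR 2.5.2a, RSEM 1.2.30 and edgeR, on build GRCm38. No source states their settings or which annotation release was counted. Expected counts divide reads that fit several genes, and no strand setting is stated, so overlapping genes may share reads.

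Libraries were grouped by title. Of the values of a library, 15.3 to 17.3% were not whole (any remainder), and counts were rounded. Replicates differed by more than counting noise in all 20 within-group pairs (chi-square per degree of freedom 8.64 to 203). The test was edgeR 4.0.16 (R 4.3.3; quasi-likelihood, TMM, filterByExpr with minimum count 10 and total 15, group term alone, Benjamini-Hochberg over 13966 genes). CPM are TMM-scaled. Standard errors are the unshrunken coefficient over the square root of F. Pvrl3 and Cd96, under the filter, were compared by exact permutation (scipy 1.17.1). The floor used for Cd96 covers counting error in the Rag2-/-γc-/- group only. CPM per kb used the exon union of GENCODE M21, in which 7 of 7 members were found by identifier; its release may differ from that of the counts. Alternatives were RLE and upper quartile scaling, DESeq2 1.42.0, limma 3.58.1 voom with and without quality weights, other count filters, robust dispersion, a 1.5-fold test, leaving out each library, and omitting 10 and 11, or 7 to 9, of the Rag2-/-γc-/- libraries.

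On simulated counts for this comparison (3 sets over 13966 genes, with 200 altered per set), 25.3% of genes altered 1.5-fold, 64.2% altered 2-fold and 94.8% altered 4-fold were called by edgeR, and 6.45% of calls were false. The simulation drew each gene independently and held no parts within a group, so these shares may not describe the calls on the real counts. The members, lists and alternatives were chosen with earlier results of these data known. Named were all members, from each pathway list the called genes ranked by adjusted p, up to 4 (if none was called, the lowest p), the 3 genes most like each tested member, and the nearest tested gene on each side; others are named as chosen after their values were seen or as markers. Of the junction genes counted as lower, 2 are not reported here by name.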

Additional observations from a re-analysis of the deposited data

Results flagged for a closer look

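Of 27 sets of 5 libraries (members and named list genes, by group), 3 held a library far from the other 4 by Dixon's criterion, which chance meets in about 1 in 20 sets. Pvr was at 8.86 CPM in C57BL/6J library 1, against 14.7 to 16.98 CPM in the other 4 of its group. Leaving it out gave -0.45 on the log2 scale (edgeR adjusted p = 0.21). Pvrl3 was at 0.101 CPM in C57BL/6J library 4, against 0 to 0.0218 CPM in the others, and at 0.109 CPM in Rag2-/-γc-/- library 9, against 0 to 0.0170 CPM. These Pvrl3 values stand for 4 and 3 counts.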

How the results depend on the processing

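No paired analysis was made, because the labels do not state which primary leukaemia each recipient received. The calls for Pvrl2 and Cd226 and their directions held under RLE and upper quartile scaling, both other count filters, DESeq2, both forms of limma-voom, robust dispersion and each library left out. Against a 1.5-fold change the log2 fold changes of Pvrl2 (-1.86) and Cd226 (1.09) were not past the threshold, nor were -1.32 and 1.08 without Rag2-/-γc-/- libraries 7, 8 and 9. Tigit, at 1.26, passed only in that last setting. Pvr passed with quality weights (-0.49), without libraries 10 and 11 (-0.80) and without library 10 (-0.70). With each library left out, log2 fold changes spanned -0.70 to -0.40 for Pvr, 0.0041 to 0.20 for Pvrl1, -2.09 to -1.54 for Pvrl2, 0.97 to 1.19 for Cd226 and 0.30 to 0.60 for Tigit. The cause of these changes was not tested.

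The sign of Pvrl1 turned with quality weights (-0.03) and without libraries 10 and 11 (-0.05). The mean difference of Pvrl3 (-0.000455 CPM) spanned -0.0196 to 0.0204 CPM, turning to 0.00573, 0.00563, 0.000296 and 0.00574 CPM without C57BL/6J library 1, 3, 5 or 6, 0.0204 without Rag2-/-γc-/- library 9, and 0.0249 without 7, 8 and 9. That of Cd96 spanned 0.187 to 0.437 CPM and passed without C57BL/6J library 5 (0.437; exact permutation p = 0.0317 adjusted over both genes).

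Over all genes, 464 were higher and 624 lower. These counts were 803 and 1155 in DESeq2, 3306 and 3217 with quality weights, 126 and 119 against a 1.5-fold change, 2786 and 2518 without libraries 10 and 11, 148 and 127 without 7, 8 and 9, and 275 to 1076 and 304 to 1323 with each library left out. Junction genes called higher were 3 with quality weights and without libraries 10 and 11, and 1 with each library left out. Those called lower were 3 with 1 CPM required in 5 libraries, 10 with quality weights, 2 against a 1.5-fold change, 8 without libraries 10 and 11, 1 without 7, 8 and 9, and 2 to 7 with each library left out. Signalling genes called higher were 1 against a 1.5-fold change, 0 without 7, 8 and 9, and 2 with each library left out. Those called lower were 5 in DESeq2, 8 with quality weights, 0 against a 1.5-fold change, 10 without libraries 10 and 11, 0 without 7, 8 and 9, and 0 to 7 with each library left out.

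Among neighbouring genes that did not pass, log2 fold changes turned without libraries 7, 8 and 9 for Ceacam16 (0.05), Zfp180 (-0.03), Bcl3 (0.02), Gm4737 (-0.10), Gm7204 (0.01), Rttn (-0.23), Eif3s6-ps2 (0.03), Zbtb20 (1.13) and Plcxd2 (-0.04). Rnf26 turned with quality weights (0.02) and without C57BL/6J library 4 (0.02), Rag2-/-γc-/- library 10 (0.05) or both 10 and 11 (0.10), Tomm40 without C57BL/6J library 1 (-0.0034) and Gm7204 without Rag2-/-γc-/- library 10 (0.01). Zbtb20 (-1.38), Rttn (0.72) and Qtrtd1 (0.53) passed without libraries 10 and 11, and with quality weights (-1.07, 0.62 and 0.58). With each library left out, Rnf26 spanned -0.07 to 0.05, Tomm40 -0.0034 to 0.14 and Gm7204 -0.09 to 0.01. Depth limits Pvrl3 and Cd96, with at most 4 and 33 counts in a library.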

Other observations

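Crtam, the lymphocyte receptor gene whose product binds CADM1, did not pass the count filter and was picked out here after its values were seen. It measured 0.244, 0.197, 0.127, 0 and 0.0755 CPM in C57BL/6J libraries 1, 3, 4, 5 and 6, against 0.746, 1.16, 0.832, 0 and 0 CPM in Rag2-/-γc-/- libraries 7 to 11. It was highest in Rag2-/-γc-/- libraries 7, 8 and 9 and at 0 in libraries 10 and 11, and Cd3e did not exceed 0.0327 CPM in any of these 5. Itgb3, the partner of the integrin chain gene Itgav, was at 2.87 CPM in C57BL/6J library 1 and at 0.0435 to 0.666 CPM in the other 9 libraries. Itgav itself averaged 75.8 ± 18.0 CPM in C57BL/6J recipients and 97.7 ± 13.5 CPM in Rag2-/-γc-/- recipients (SD, n = 5 each; edgeR adjusted p = 0.207).

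Tigit was 7.06 to 11.1 times the level of Cd226 per kb in C57BL/6J libraries. In Rag2-/-γc-/- libraries the ratio was 24.1, 13.6 and 13.6 in libraries 7, 8 and 9 and 6.96 and 7.57 in libraries 10 and 11. The ratio thus differed between the parts of the Rag2-/-γc-/- group, which was not tested.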
